A study of Mus musculus with 12 samples.

Results

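The genes described here are 10 transcripts that mark the alveolar epithelium of the lung, read in endothelial cells (ECs) sorted from mouse lungs during metastatic colonization. Of the 10, 4 mark alveolar type 1 (AT1) cells (Ager, Hopx, Aqp5 and Rtkn2) and 6 mark alveolar type 2 (AT2) cells (Sftpc, Sftpb, Sftpa1, Sftpd, Lamp3 and Abca3). They were chosen by name. Each was read from the probe set that carries its symbol alone and, of several such, had the highest mean signal. Of the 10, 9 have such a probe set, among 18193 genes that do. The only probe set of Lamp3 is shared with Ppid, so Lamp3 has no value. The ECs came from 4 groups of NSG mice, an immunodeficient strain, injected at 6 to 8 weeks of age. Mice of 3 groups received MDA-MB-231-LM2 human breast cancer cells through the tail vein, and their lungs were taken 1, 2 or 3 weeks later. The healthy group was matched for age and carried no cancer cells. Each group had 3 arrays of biological replicates, and whether a replicate was 1 mouse or a pool is not stated. The sort kept cells with CD31 and discarded those with EpCAM, the fibroblast antigens CD140a and CD140b, the leukocyte antigens CD45 and CD11b, or the GFP that labels the cancer cells. The genes below are therefore markers of the epithelium read in a preparation from which cells with EpCAM had been removed. Which cells gave their signal was not measured.

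The alveolus is lined by flat AT1 cells, through which gas is exchanged, and by cuboidal AT2 cells, which make surfactant and act as progenitors of AT1 cells. AT1 cells lie on a basement membrane that they share with capillary ECs. Surfactant is a film of phospholipid and protein that lowers surface tension. AT2 cells assemble it in lamellar bodies, loaded with lipid by the transporter ABCA3. The hydrophobic surfactant proteins B and C are packed with the lipid and spread it at the air surface, and the collectins A and D bind microbes. NKX2-1 is a transcription factor known to drive several surfactant genes.

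Promoter sequence is shown for a pair of surfactant genes, Sftpa1 and Sftpb, and for Hopx. Theirs were the windows that held a motif of the NKX2-1 type. On the probe sets used, the arrays of the pair lay below all healthy arrays at every week. So did those of Ager and Aqp5, whose windows held no such motif. Those of Hopx did so at week 3 and not at weeks 1 and 2. A link between motif and signal was not tested. The sequences are the 250 bases before the RefSeq start (GRCm38.p6), 5′ to 3′ on the strand of the gene, and the windows overlap no gene of the RefSeq table. Capitals mark CAAGTG and CTCAAG, motifs of the NKX2-1 type, on either strand (CACTTG and CTTGAG on the other strand). The windows are chr14:41131538-41131787 on the + strand for Sftpa1, chr6:72304360-72304609 on the + strand for Sftpb and chr5:77115124-77115373 on the - strand for Hopx.
Sftpa1: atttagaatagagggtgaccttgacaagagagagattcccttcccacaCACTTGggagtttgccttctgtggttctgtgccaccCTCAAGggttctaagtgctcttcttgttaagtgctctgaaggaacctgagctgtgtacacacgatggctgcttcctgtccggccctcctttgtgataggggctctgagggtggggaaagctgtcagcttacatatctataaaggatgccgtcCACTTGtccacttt
Sftpb: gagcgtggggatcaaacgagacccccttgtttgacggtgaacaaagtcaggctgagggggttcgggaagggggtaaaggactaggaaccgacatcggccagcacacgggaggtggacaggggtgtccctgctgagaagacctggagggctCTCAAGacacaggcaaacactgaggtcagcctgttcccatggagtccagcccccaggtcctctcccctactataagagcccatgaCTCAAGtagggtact
Hopx: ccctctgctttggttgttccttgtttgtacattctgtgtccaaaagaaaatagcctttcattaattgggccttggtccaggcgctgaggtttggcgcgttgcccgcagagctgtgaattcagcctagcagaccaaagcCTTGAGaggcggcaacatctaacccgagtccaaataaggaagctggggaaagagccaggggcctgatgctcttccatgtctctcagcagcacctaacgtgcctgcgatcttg
The Sftpa1 window held 2 matches to the first motif and 1 to the second, the Sftpb window held 2 matches to the second, and the Hopx window held 1 match to the second. Of 32851 promoters of the same length, 11.6% held the first motif and 13.3% the second. The windows of Ager, Aqp5, Abca3 and Lamp3 and a second window of Hopx held neither. A FOXA-type motif (TGTTTAC, in 3.17% of promoters) had 1 match, in the window of Lamp3, and was in none of those of measured genes. A C/EBP-type motif (TTGCNNAA, in 9.56%) was in none of the windows, and a TATA box (TATAAA, in 12.4%) was in that of Sftpa1 alone. These matches describe the letters of the windows and are not binding sites. Sftpc, Sftpd and Rtkn2 had no entry.

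Before the comparisons, 1 array is described on its own. Week 2 replicate 2 had the highest signal of its group for 9 of the 9 genes, by 0.62 on average above the group mean on the log2 scale and by up to 0.96. Week 1 replicate 1 had the lowest signal of its group for 8 of 9 genes, and healthy replicate 3 for 8 of 9. At week 2 the SD of Sftpa1 was 0.90, larger than that of 99.9% of genes in the same arrays, and that of Rtkn2 was 0.87, larger than 99.8%. In healthy lungs the SD of Sftpc was 0.020, and 1.68% of genes had a smaller one. Of the 6 lists of other epithelial genes described below, 5 had their highest mean of week 2 in this array, and the airway list did not. The mean over 16 further AT1 genes was 10.1 in week 2 replicate 2, against 9.56 and 9.51 in replicates 1 and 3. The airway mean was 8.13, 7.71 and 7.32 in replicates 1, 2 and 3. Other cell types were high in this array too: the fibroblast mean was 10.88, 10.97 and 10.61, the mural mean 9.09, 9.18 and 9.08 and the leukocyte mean 7.74, 7.98 and 7.46. The mean over 17 pan-endothelial genes was 12.9 in each of the 3. The array was singled out on the values of the alveolar genes themselves. Leaving it out therefore had to lower the week 2 mean of each of the 9 genes. It could not reduce the number of genes whose week 2 arrays lay below all healthy arrays. The week 2 fold changes below are given also without it and, for some genes, without another array.

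**Figure D1:**
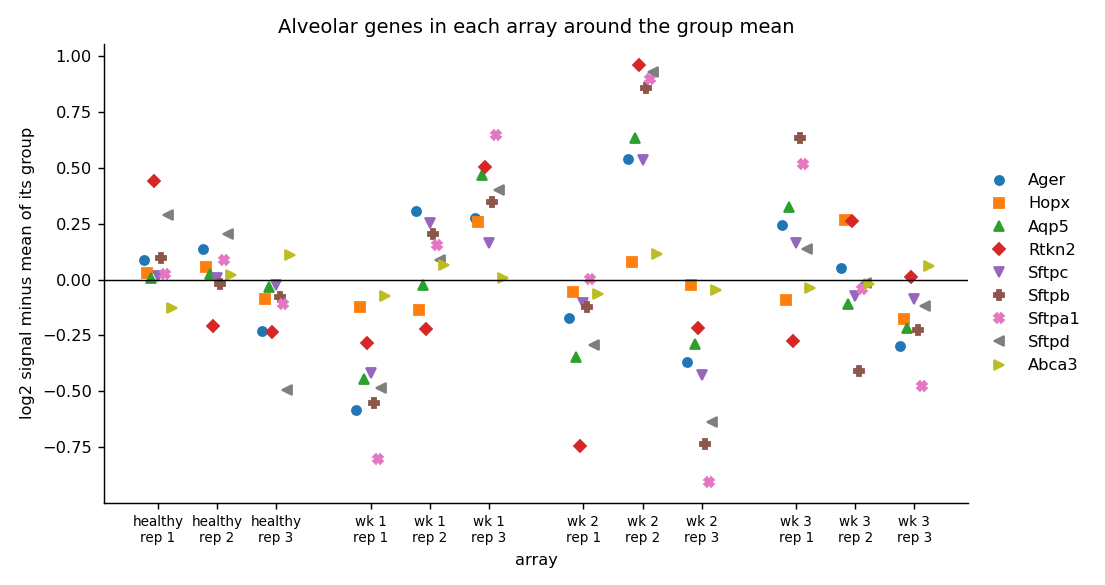
Log2 signal of the 9 alveolar genes in each of the 12 arrays, as the difference from the mean of its group (y axis). Each symbol is 1 gene, and in week 2 replicate 2 all 9 symbols lie above 0.

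At week 3, the AT1 genes Ager, Rtkn2 and Aqp5 and the AT2 genes Sftpa1 and Sftpc had fallen against healthy lungs, by 1.51-fold to 3.51-fold. Here and below, a gene fell or rose where its adjusted p in limma was under 0.05 over all 45037 probe sets, and the values are log2 signals. The deposited values carry no detection or saturation flags, so a change near the bottom or the top of the scale may be understated. Of the 9 genes, 5 fell and 0 rose, and 2.63% of all genes fell and 2.38% rose in the same comparison. The arrays of week 3 lay below all healthy arrays for 8 of 9 genes, against 12.7% of all genes. In sorted cells, fewer alveolar cells and less of the RNA per cell cannot be told apart. The median log2 fold change was -1.15 over the 4 AT1 genes and -0.91 over the 5 AT2 genes, against 0.026 over all genes. The week 3 call of Ager held when any single array was left out. The other 4 calls did not. The count was 1 without healthy replicate 2 or week 3 replicate 3, and 2 without healthy replicate 1 or week 3 replicate 2. It was 3 without healthy replicate 3, with Sftpd newly past the threshold, and 5 without week 3 replicate 1. In that last fit Sftpb newly passed and Rtkn2 no longer did (adjusted p = 0.0600). The count was 2 with the replicate number as a block (Ager and Sftpa1) and 1 in a fit of all 4 groups together (Ager). It was 6 with the mean of all probe sets of a gene and 7 with a trended and robust variance.

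**Figure D2:**
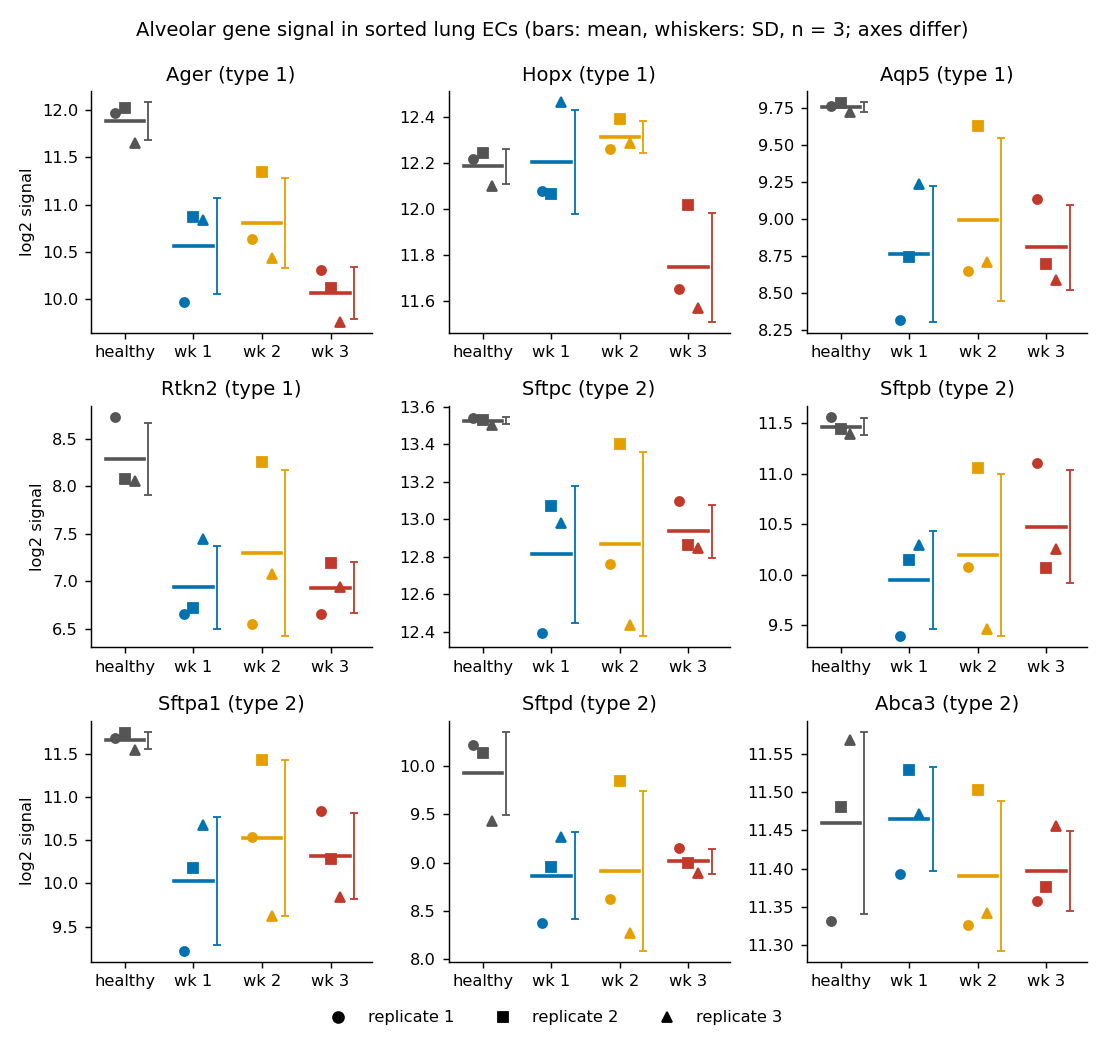
Log2 signal (y axis, scaled per panel) of each alveolar gene in healthy lungs and at weeks 1, 2 and 3, with 1 symbol per array, the mean as a bar and the SD as a whisker. Ager has all week 3 arrays under all others but 1 of week 1, and the arrays of Abca3 overlap in every group.

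Among the AT1 genes, Ager encodes RAGE, a receptor that AT1 cells carry in abundance on their basal side. Its signal was 11.97, 12.02 and 11.65 in healthy lungs, 9.98, 10.87 and 10.84 at week 1, 10.64, 11.35 and 10.44 at week 2 and 10.31, 10.12 and 9.77 at week 3. No array of any week reached the lowest healthy array. At week 3 the log2 fold change was -1.81 (standard error 0.17, adjusted p = 0.00387). A further probe set of Ager fell as well (-1.17, adjusted p = 0.0228).

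Rtkn2 encodes rhotekin 2. Its signal was 8.73, 8.08 and 8.06 in healthy lungs, 6.65, 6.71 and 7.44 at week 1, 6.55, 8.26 and 7.08 at week 2 and 6.66, 7.19 and 6.94 at week 3. The groups did not overlap with healthy at weeks 1 and 3, and at week 2 replicate 2 lay inside the healthy range. At week 3 its log2 fold change was -1.36 (standard error 0.22, adjusted p = 0.0221). Rtkn2 did not pass the filter on dim probe sets. Whether it was above background after injection is not known here, and its fold change may be a lower bound.

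Aqp5 encodes the water channel aquaporin 5 of the apical membrane. Its signal was 9.77, 9.78 and 9.72 in healthy lungs, 8.32, 8.74 and 9.24 at week 1, 8.65, 9.63 and 8.71 at week 2 and 9.14, 8.70 and 8.59 at week 3. The healthy arrays had an SD of 0.032 and lay above every other array. The log2 fold change at week 3 was -0.95 (standard error 0.16, adjusted p = 0.0228).

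Hopx encodes a small homeodomain protein that does not bind DNA. Its signal was 12.21, 12.24 and 12.10 in healthy lungs, 12.08, 12.07 and 12.46 at week 1, 12.26, 12.39 and 12.28 at week 2 and 11.65, 12.02 and 11.57 at week 3. The arrays of week 2 lay above, and those of week 3 below, all healthy arrays. Neither difference passed: the log2 fold change was 0.13 at week 2 (adjusted p = 0.711) and -0.44 at week 3 (standard error 0.14, 95% confidence interval -0.77 to -0.10, adjusted p = 0.143). On a further probe set the week 2 arrays, at 10.21 to 10.52, overlapped the healthy arrays, at 9.78 to 10.25, and the difference was 0.34 (adjusted p = 0.494). Week 3 differed from healthy by -0.52 on it (adjusted p = 0.147).

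Among the AT2 genes, Sftpc and Sftpb encode the hydrophobic surfactant proteins C and B. The signal of Sftpc was 13.54, 13.53 and 13.50 in healthy lungs, 12.39, 13.07 and 12.98 at week 1, 12.76, 13.40 and 12.44 at week 2 and 13.10, 12.86 and 12.85 at week 3. On this probe set every array after injection lay below every healthy array. Against healthy, the week 3 difference was -0.59 (standard error 0.11, adjusted p = 0.0351), and on a further probe set it was -0.56 and did not pass (adjusted p = 0.0633). On that further probe set, week 2 replicate 2 (13.48) lay above healthy replicates 1 and 2 (13.26 and 13.29).

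The signal of Sftpb was 11.56, 11.45 and 11.39 in healthy lungs, 9.39, 10.15 and 10.29 at week 1, 10.07, 11.06 and 9.46 at week 2 and 11.11, 10.06 and 10.25 at week 3. Healthy arrays were again the highest, and week 2 replicate 2 and week 3 replicate 1 came closest to them. Week 3 differed from healthy by -0.99 (standard error 0.26, adjusted p = 0.0855). Without week 3 replicate 1 the difference was -1.31 (adjusted p = 0.0127). Without any other 1 array it was -0.79 to -1.03, with adjusted p from 0.164 to 0.207.

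Sftpa1 and Sftpd encode the collectins, surfactant proteins A and D. The signal of Sftpa1 was 11.68, 11.74 and 11.54 in healthy lungs, 9.22, 10.18 and 10.67 at week 1, 10.53, 11.43 and 9.62 at week 2 and 10.84, 10.28 and 9.84 at week 3. On this probe set no later array reached the healthy range. The log2 fold change at week 3 was -1.34 (standard error 0.24, adjusted p = 0.0290), and on a further probe set -1.54 (adjusted p = 0.0193). On that further probe set, week 2 replicate 2 (9.09) lay above healthy replicate 3 (9.08).

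The signal of Sftpd was 10.22, 10.13 and 9.43 in healthy lungs, 8.38, 8.95 and 9.27 at week 1, 8.62, 9.85 and 8.28 at week 2 and 9.15, 8.996 and 8.89 at week 3. Healthy replicate 3 was the low healthy array, and week 2 replicate 2 exceeded it. The week 3 difference of Sftpd was -0.91 (standard error 0.21, adjusted p = 0.0644). Without healthy replicate 3 the difference was -1.16 (adjusted p = 0.0184). Without any other 1 array it was -0.77 to -0.98, with adjusted p from 0.111 to 0.177.

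Abca3, the lipid transporter of the lamellar body, had a signal of 11.33, 11.48 and 11.57 in healthy lungs, 11.39, 11.53 and 11.47 at week 1, 11.33, 11.50 and 11.34 at week 2 and 11.36, 11.38 and 11.46 at week 3. All 4 groups overlapped. The log2 fold change at week 3 was -0.063 (95% confidence interval -0.32 to 0.19, adjusted p = 0.796). On 2 further probe sets it was 0.011 and 0.34.

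At week 1, 0 of 9 genes passed the threshold by limma in either direction, and of all genes 0.0385% fell and 0.011% rose. At an unadjusted p under 0.05, 7 of 9 were lower, against 5.24% of all genes, and the arrays of 7 of 9 lay below all healthy arrays, against 6.93%. The lowest log2 fold changes were those of Sftpa1 (-1.63, adjusted p = 0.128), Sftpb (-1.52, adjusted p = 0.0654), Rtkn2 (-1.35, adjusted p = 0.116) and Ager (-1.31, adjusted p = 0.108). Hopx and Abca3 were at 0.017 and 0.0052. With a trended and robust variance, 4 genes passed (Sftpb, Ager, Sftpa1 and Sftpc). That fit called more genes in general: of 163 genes of the other lists described below, 25 passed, against 2 in the main fit.

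At week 2, 0 of 9 genes passed (0.137% of all genes fell and 0.104% rose), 7 of 9 were lower at an unadjusted p under 0.05 (5.19% of all genes) and 5 of 9 lay below all healthy arrays (7.15%). The log2 fold change was -1.27 for Sftpb, -1.13 for Sftpa1, -1.07 for Ager and -0.66 for Sftpc, with adjusted p from 0.186 to 0.385. Without week 2 replicate 2 the values were -1.70 for Sftpb, -1.58 for Sftpa1, -1.34 for Ager and -0.93 for Sftpc, and those of Rtkn2, Sftpd, Hopx and Abca3 were -1.47, -1.48, 0.087 and -0.13. Of the 9, 0 passed. The arrays of 7 of 9 then lay below all healthy arrays, as did those of 11.1% of all genes. The lowest adjusted p was then that of Aqp5 (-1.08, adjusted p = 0.0521). The other arrays moved the values as well. Without week 2 replicate 3 they were -0.90 for Sftpb, -0.67 for Sftpa1, -0.89 for Ager and -0.45 for Sftpc, and without replicate 1 Rtkn2 was at -0.62. All 3 weeks share the healthy arrays, so their fold changes are not independent of one another.

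**Figure D3:**
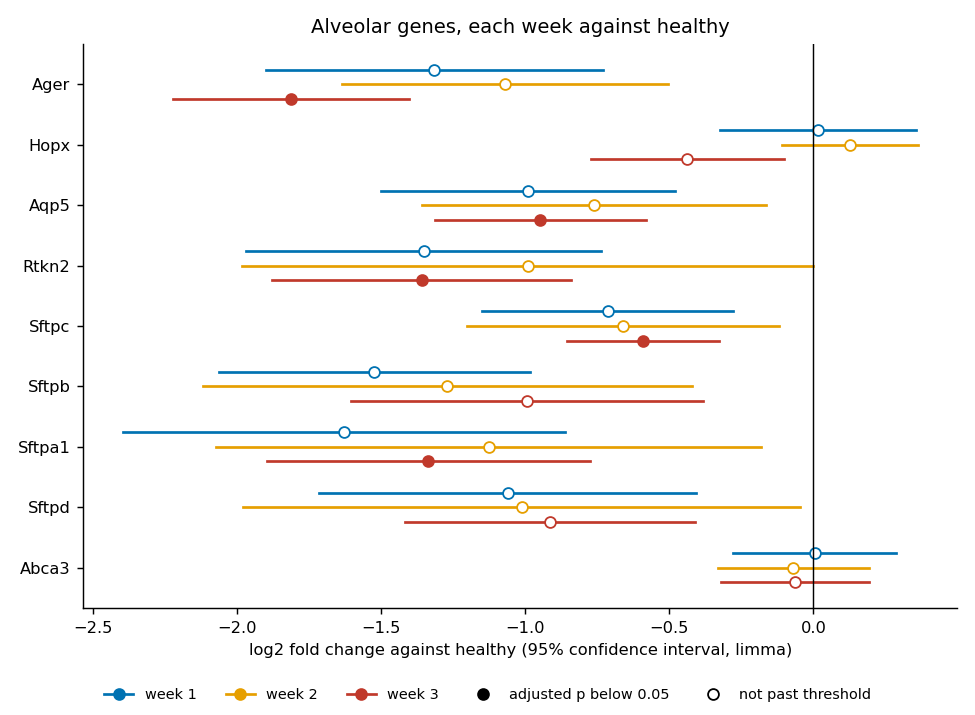
Log2 fold change against healthy lungs (x axis) with its 95% confidence interval for each alveolar gene at weeks 1, 2 and 3, and filled points where the adjusted p was below 0.05. The 5 filled points are all at week 3, and the intervals of Abca3 cross 0 at every week.

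Between weeks, 0 of 9 genes passed in each of week 2 against week 1, week 3 against week 1 and week 3 against week 2, where 0%, 0.192% and 0.748% of all genes fell and 0%, 0.649% and 1.35% rose. At an unadjusted p under 0.05, 0, 1 and 2 genes were lower, against 3.07%, 6.47% and 8.34% of all genes. The same 0, 1 and 2 had no array in common range with the earlier week, against 6.94%, 11.1% and 12.5%. Hopx was lower at week 3 than at week 1 (-0.45, unadjusted p = 0.0328) and than at week 2 (-0.56, unadjusted p = 0.00471, adjusted p = 0.102). On the further probe set of Hopx the difference of week 3 from week 2 was -0.87 and passed (adjusted p = 0.0469). Ager was lower at week 3 than at week 2 (-0.74, unadjusted p = 0.0233, adjusted p = 0.210). For Sftpa1 the difference of week 3 from week 1 was 0.29, with a 95% confidence interval of -0.62 to 1.21. In order of group means, healthy was highest for Ager, Aqp5, Rtkn2, Sftpc, Sftpb, Sftpa1 and Sftpd, and no 2 weeks differed at an adjusted p under 0.05 for any of them.

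Further genes used as markers of the alveolar epithelium, or tied to surfactant, were read from lists. Not every listed gene is particular to that epithelium, and which cells gave their signal was not measured. Of 16 further AT1 genes, 9 fell at week 3 and 0 rose, with a median log2 fold change of -0.96. The lowest were Cldn18, a tight junction claudin (-2.31, adjusted p = 0.00805), Cyp2b10, a cytochrome P450 (-2.14, adjusted p = 0.000488), and Col4a3, a chain of basement membrane collagen (-2.11, adjusted p = 0.0111). Pdpn, a membrane glycoprotein of AT1 cells, did not pass (0.16, adjusted p = 0.471).

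Of 11 further AT2 genes, 3 fell at week 3: Hc, complement component C5 (-1.37), Cxcl15, the chemokine lungkine (-1.08), and Dram1, a lysosomal membrane protein (-0.64). Their median was -0.45. Hc fell at week 1 too (-1.69, adjusted p = 0.0394). Of 17 genes of surfactant processing, lipid supply and clearance, 5 fell and 1 rose. Slc34a2, the phosphate transporter of AT2 cells (-1.57), and Chka, a choline kinase (-1.11), fell, and Csf2rb, the beta chain of the GM-CSF receptor, rose (1.81, adjusted p = 0.00265). GM-CSF receptor signaling is known for surfactant clearance by macrophages.

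Of 10 lung epithelial transcription factors, Foxa2 fell at week 3 (-0.78, adjusted p = 0.0322) and Cebpa had fallen at week 1 (-1.60, adjusted p = 0.0394). Nkx2-1 stood at -0.011 at week 3 (adjusted p = 0.983). Its group mean was 7.91 in healthy lungs and 7.90 at week 3, under the array medians of 8.12 to 8.13. Whether its probe set detected the transcript is not known here, so a change could have been missed. Of 17 pan-epithelial genes, 3 fell, namely Cdh1, or E-cadherin (-1.41), the serine protease Prss8 (-0.99) and the protease inhibitor Spint2 (-0.84). The median was -0.25. Epcam, the epithelial antigen of the sort, had a group mean of 7.47 in healthy lungs and 7.09 at week 3 (-0.37, adjusted p = 0.114). Of 13 airway genes, 1 fell, Cyp2f2 of club cells (-2.20, adjusted p = 0.0476), and the median was 0.13. The secretoglobins of club cells did not pass: the group mean of Scgb1a1 was 12.4 in healthy lungs and 10.9 at week 3 (adjusted p = 0.0628), and that of Scgb3a2 was 10.7 and 9.51 (adjusted p = 0.405). Over the 6 epithelial lists together, 23 of 84 genes passed at week 3. All of these but Csf2rb fell, and of all genes 2.63% fell and 2.38% rose. With an array left out, the count was from 8 (without healthy replicate 2) to 17 (without week 3 replicate 1). It was 10 without week 3 replicate 3, 11 and 13 without healthy replicates 1 and 3, and 15 without week 3 replicate 2. At week 1 the 2 that passed, Hc and Cebpa, became 0 without any 1 of the healthy arrays or of week 1 replicates 1 and 2.

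**Figure D4:**
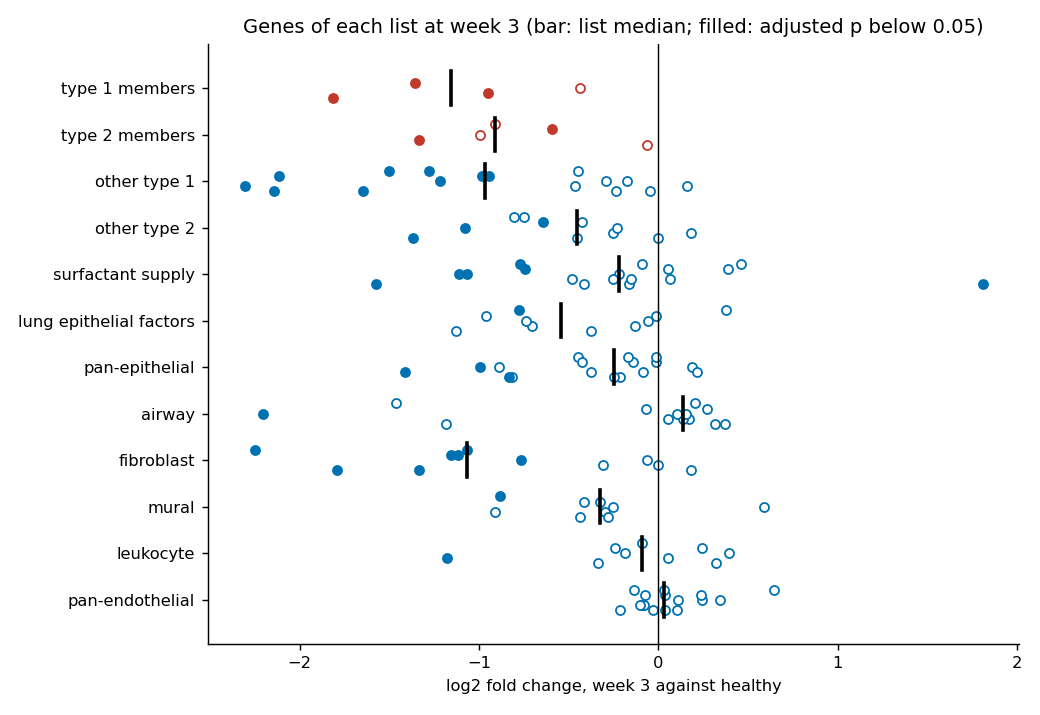
Log2 fold change of week 3 against healthy lungs (x axis) for each measured gene of 12 lists (rows), with the list median as a bar and filled points where the adjusted p was below 0.05. The medians of the 4 AT1 and 5 AT2 genes (-1.15 and -0.91), of the other AT1 genes (-0.96) and of the fibroblast genes (-1.07) lie lowest, and that of the pan-endothelial list lies at 0.033.

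Lists of other cell types moved with the alveolar genes to different degrees. Of 11 fibroblast genes, 7 fell at week 3 and 0 rose, with a median of -1.07 (-0.64 at week 1 and -1.01 at week 2). Their mean per array was 11.75 to 11.84 in healthy lungs and 10.82 to 11.003 at week 3. Pdgfra, which encodes CD140a of the sort, fell (-2.25), as did Tcf21, a factor of lung fibroblasts (-1.79), and Inmt, a methyltransferase (-1.33). Of 9 mural genes, 1 fell (Myh11, smooth muscle myosin, -0.88), and of 9 leukocyte genes, 1 fell (Cd68, -1.18). At week 2, Col1a1, Dcn and Fbln1 of the fibroblast list and Acta2 of the mural list fell (-1.11, -1.38, -1.21 and -1.51). At weeks 1 and 2 the mean per array of the mural, leukocyte and alveolar macrophage lists lay below all healthy arrays. The mural mean was 9.64 to 9.80 in healthy lungs, 8.96 to 9.12 at week 1 and 9.08 to 9.18 at week 2. The leukocyte mean was 8.01 to 8.40, 7.59 to 7.91 and 7.46 to 7.98, and the alveolar macrophage mean was 7.76 to 7.95, 7.28 to 7.62 and 7.17 to 7.38. These lists were thus lower at weeks 1 and 2, with median log2 fold changes of -0.52 and -0.54 (mural), -0.53 and -0.56 (leukocyte) and -0.18 and -0.25 (alveolar macrophage). At week 3 the mural mean, 9.23 to 9.50, was still below all healthy arrays. The leukocyte mean, 8.08 to 8.20, and the alveolar macrophage mean, 7.63 to 7.87, overlapped the healthy range again. Their week 3 medians were -0.33 (mural), -0.092 (leukocyte) and 0.11 (alveolar macrophage). Of 17 pan-endothelial genes, 0 passed by limma, 0 were lower at an unadjusted p under 0.05, and the median was 0.033. Emcn, the endothelial sialomucin endomucin, had the largest value (0.65, adjusted p = 0.0566), and Pecam1, which encodes CD31, had 0.035 (adjusted p = 0.877). Of the genes of the discarded antigens, Pdgfrb (CD140b) was at -0.91 (adjusted p = 0.0575), Ptprc (CD45) at 0.39 (adjusted p = 0.503) and Itgam (CD11b) at -0.24 (adjusted p = 0.555). Of 16 genes of other organs, 0 passed by limma and 0 were lower at an unadjusted p under 0.05, with Myod1, a muscle factor, at 0.32. Of 5 mesothelial genes and 5 alveolar macrophage genes 0 passed by limma, with Wt1 at 0.70 and Siglecf at -0.92, and 0 and 1 were lower at an unadjusted p under 0.05. Of 7 genes of mature dendritic cells, where Lamp3 is also known, Relb rose (0.78) and Cd83 fell (-0.73). As a measure of RNA integrity, the signal of the 3′ Gapdh probe set minus that of the 5′ one was 0.52 ± 0.16 in healthy lungs and 0.31 ± 0.08 at week 3 (SD, n = 3). The part of these other lists and of RNA integrity in the alveolar values was not tested.

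The genes closest to the alveolar profiles over the 12 arrays were found by the root-mean-square difference of log2 signals, each centred on its own mean. Closest to the mean of the 4 AT1 genes were Gucy1a1 (0.142), Scnn1g (0.142), Ripk4 (0.153), Rasl12 (0.180) and Lamb3 (0.181), and closest to the mean of the 5 AT2 genes were Scd1 (0.141), Napsa (0.193), Slc39a8 (0.198), Krt7 (0.205) and Rasl12 (0.215). The median over all other genes was 0.548 for the first profile and 0.549 for the second. Rasl12 was on both lists. Scd1, which encodes a stearoyl-CoA desaturase, and Napsa, which encodes a protease that processes surfactant proteins, belong to the list of surfactant supply above, and Scnn1g, a sodium channel subunit, and Krt7, a keratin, to that of AT1 genes. The group means of Gucy1a1, a soluble guanylate cyclase subunit, were 11.3 in healthy lungs and 10.3, 10.5 and 10.03 at weeks 1, 2 and 3.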

How the data were processed

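RNA of sorted lung ECs was hybridised to Affymetrix mouse genome arrays. The deposited values are log2 signals, 1 per probe set and array, which the authors made by robust multiarray average in Chipster (background correction, quantile normalization and summary). They lie between 5.27 and 14.0, and the number of arrays limits the precision. Of 45101 probe sets, 64 array controls were set aside. Of the rest, 34945 carry 1 symbol, 932 several and 9160 none. Pairs of groups, each of 3 arrays, went into limma (version 3.58.1, R 4.3.3) (lmFit and eBayes, default settings), with Benjamini-Hochberg correction over 45037 probe sets, and the test was tried on simulated data. Correlations between arrays were 0.973 to 0.983 within groups and 0.961 to 0.981 between them. Tables and plots used Python 3.11.15.

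The 10 genes, the marker lists and the motifs were chosen with earlier results of these data known. Named genes are the 10 genes, up to 3 genes per list with the largest fold change past the threshold at week 3 (or the 1 largest where none passed), genes of the sort antigens, and the 5 nearest profiles. Pdpn, Nkx2-1, Cebpa, Scgb1a1, Scgb3a2, Col1a1, Dcn, Fbln1, Acta2 and the week 1 value of Hc were named after their values were seen. The alternatives were a fit of all groups, the replicate block, each array left out, 3 other normalizations, a filter on dim probe sets, other probe sets or their mean, a trended variance and array weights. The labels do not say that replicate numbers pair the arrays.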

Additional observations from a re-analysis of the deposited data

How the results depend on the processing

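Of 894 fold changes of the alveolar genes under an alternative, 801 kept their direction and side of the threshold, 26 no longer passed, 17 newly passed and 50 changed sign. Of the 50, 0 passed in either fit, and the largest was 0.42 in size. All 26 losses were in week 3 against healthy, the only comparison with calls to lose. There, 114 fold changes kept direction and side, 6 newly passed and 3 changed sign. Elsewhere no gene had passed, so keeping its side says little. Normalizing by quantiles again and centring on the array median gave the same counts as the main fit. The cause was not tested for any change below. The number of arrays, 3 a group, limits the precision.

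At week 1, the count of alveolar genes past the threshold, 0, was 1 with centring on the pan-endothelial genes, 1 without dim probe sets, 2 with the mean of probe sets and 4 with a trended variance. At week 3 the count of 5 was 1 in the fit of all groups, 2 with the replicate block, 6 with the mean of probe sets, 7 with a trended variance and 1 to 5 with an array left out. In the same order, 31, 17, 39, 41 and 14 to 26 of 163 genes of the other lists passed, against 34 in the main fit. For week 3 against week 2 it was 1, not 0, with the mean of probe sets and with a trended variance (Hopx in both), and Hopx also passed on its further probe set (-0.87, adjusted p = 0.0469).

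The replicate block changed other counts too. The number of further epithelial genes past the threshold went from 2 to 0 at week 1 and from 23 to 10 at week 3, and that of all listed genes from 2 to 0, 4 to 0 and 34 to 17 at weeks 1, 2 and 3. Deviations of same-numbered arrays correlated by -0.10 to 0.065 in 18 pairs over all probe sets. Whether same-numbered arrays were processed together is not stated.

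At week 1 the 2 further epithelial genes became 5 in the fit of all groups, 8 with pan-endothelial centring, 9 without dim probe sets, 13 with the mean of probe sets, 16 with a trended variance and 4 with array weights, and the 2 of all lists became 12, 13, 14, 19, 25 and 8. At week 2 the 0 epithelial genes became 1 with the mean of probe sets, and the 4 of all lists became 8 in the fit of all groups, 8 with the mean of probe sets and 10 with a trended variance. With an array left out, the epithelial counts were 0 to 2, 0 to 2 and 8 to 17 at weeks 1, 2 and 3, and those of all lists 0 to 2, 0 to 5 and 14 to 26. The 2 epithelial genes at week 2 came without week 2 replicate 2. Of 720 counts of single lists, 141 moved by over 1.5 times.

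Sign changes were as follows. Against healthy at week 1, Abca3 was -0.099 with pan-endothelial centring, -0.0072 with array weights, -0.14 on a further probe set and -0.059 to 0.059 with an array left out, and Hopx was -0.087 with that centring and -0.11 to 0.085 with an array left out. Abca3 was 0.095 at week 2 on a further probe set, and 0.097 with the mean of probe sets, 0.011 and 0.34 on further probe sets at week 3. Between weeks, Abca3 was 0.23 for week 2 against 1, 0.087 (mean), 0.15 and 0.18 for week 3 against 1, and -0.084 for week 3 against 2. Rtkn2 was 0.039 with pan-endothelial centring and 0.030 with array weights for week 3 against 1, and Sftpc -0.055 on a further probe set for week 3 against 2.

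With an array left out, week 2 against week 1 ranged from -0.048 to 0.43 for Ager, -0.088 to 0.46 for Aqp5, -0.12 to 0.73 for Rtkn2, -0.18 to 0.62 for Sftpb, -0.21 to 0.27 for Sftpc and -0.42 to 0.37 for Sftpd. Week 3 against week 1 ranged from -0.18 to 0.28 for Aqp5, -0.15 to 0.24 for Rtkn2, -0.11 to 0.62 for Sftpa1, -0.088 to 0.25 for Sftpc and -0.097 to 0.35 for Sftpd. Week 3 against week 2 ranged from -0.025 to 0.063 for Abca3, -0.36 to 0.13 for Aqp5, -0.74 to 0.11 for Rtkn2, -0.66 to 0.24 for Sftpa1, -0.091 to 0.71 for Sftpb, -0.14 to 0.34 for Sftpc and -0.22 to 0.56 for Sftpd.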
